A study of Mus musculus with 6 samples.

Results

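The genes described here are 10 of those named as transcriptional targets of YAP and TAZ in other cell types: F3, Foxf2, Nt5e, Myof, Asap1, Dock5, Fjx1, Crim1, Gadd45a and Lats2. They were chosen by symbol from the 24062 genes of the count tables, and all 10 had a row. Of these, 9 passed a filter on low counts and entered the test of 13155 genes, and Fjx1 did not. Marrow of the femur and tibia of C57BL/6J mice was cultured with the cytokine GM-CSF (20 ng/ml) on a soft surface of 2 kPa, labelled low tension, or a stiff surface of 50 kPa, labelled high tension. PolyA RNA of 3 samples per stiffness was sequenced, so the 2 kPa samples are the reference and both groups share strain and cytokine. The labels call all samples dendritic cells, which such cultures yield together with macrophages, and give no sort, age or pooling. Nothing in them says that replicates came from separate animals or cultures. The p-values therefore rest on a spread among libraries that could be technical only.

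YAP and its paralogue TAZ are coactivators that move to the nucleus on stiff or spread adhesion and bind DNA through the TEAD factors. The Hippo kinases LATS1 and LATS2 phosphorylate both coactivators and keep them in the cytoplasm. In fibroblasts and epithelia the response to stiffness is commonly read from genes such as Ctgf, Cyr61 and Ankrd1, whereas blood-forming cells are known for little YAP. The comparison of the stiffnesses asks here how far genes of this programme differed in a marrow culture.

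The libraries held 33.83 M to 36.27 M counts, and levels are given as CPM, counts per M of the library size scaled by the TMM method. The first principal component of all tested genes separated the stiffnesses. 2 kPa replicate 1 (-13.1) and 50 kPa replicate 3 (8.06) lay nearest to each other on it, and the other libraries lay at -57.4 to -51.5 and 54.5 to 59.5. 50 kPa replicates 1 and 2 resembled each other most, with a chi-square per degree of freedom of 6.71, where every further pair of 1 stiffness gave 126 to 233. Pairs across the stiffnesses were not always less alike. 2 kPa replicate 1 gave 122 to 136 with the 50 kPa libraries, but 156 and 213 with 2 kPa replicates 2 and 3. Those 2 replicates gave 157 to 418 with the 50 kPa libraries. Each log2 fold change sets 50 kPa against 2 kPa and carries its standard error, from edgeR's quasi-likelihood test with Benjamini-Hochberg adjustment over all tested genes, and a gene was called at an adjusted p under 0.05.

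Of the 9 tested targets 1 was called higher at 50 kPa, the forkhead gene Foxf2, and 0 were called lower. Among all tested genes 1.47% were called higher and 1.98% lower. DESeq2 called Foxf2 and F3 higher and 0 lower, and limma-voom called Foxf2 higher and 0 lower. Over all genes DESeq2 called 8.52% higher and 9.51% lower, and limma-voom 1.47% and 1.79%, so the DESeq2 counts given below stand against a larger share than those of edgeR. At an unadjusted p under 0.05 edgeR gave 4 of the 9, F3, Foxf2 and Myof with a positive and Dock5 with a negative log2 fold change, beside 27.8% of all tested genes. The 50 kPa libraries lay above every 2 kPa library in 3 of the 9 (F3, Foxf2 and Myof) against 17.2% of all genes, and below every one in 0 of the 9 against 16.9%. The estimates were positive for 4 targets and negative for 5, with a median of -0.16 beside -0.028 for all tested genes. As a set, then, the targets had values on both sides of 0, from -0.97 for Crim1 to 2.69 for F3. Summed markers of neutrophils and of B cells were lower in every 50 kPa library than in any 2 kPa library, with values given after the pathway genes. In a bulk sample fewer cells of a type and less RNA per cell cannot be told apart.

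**Figure D1:**
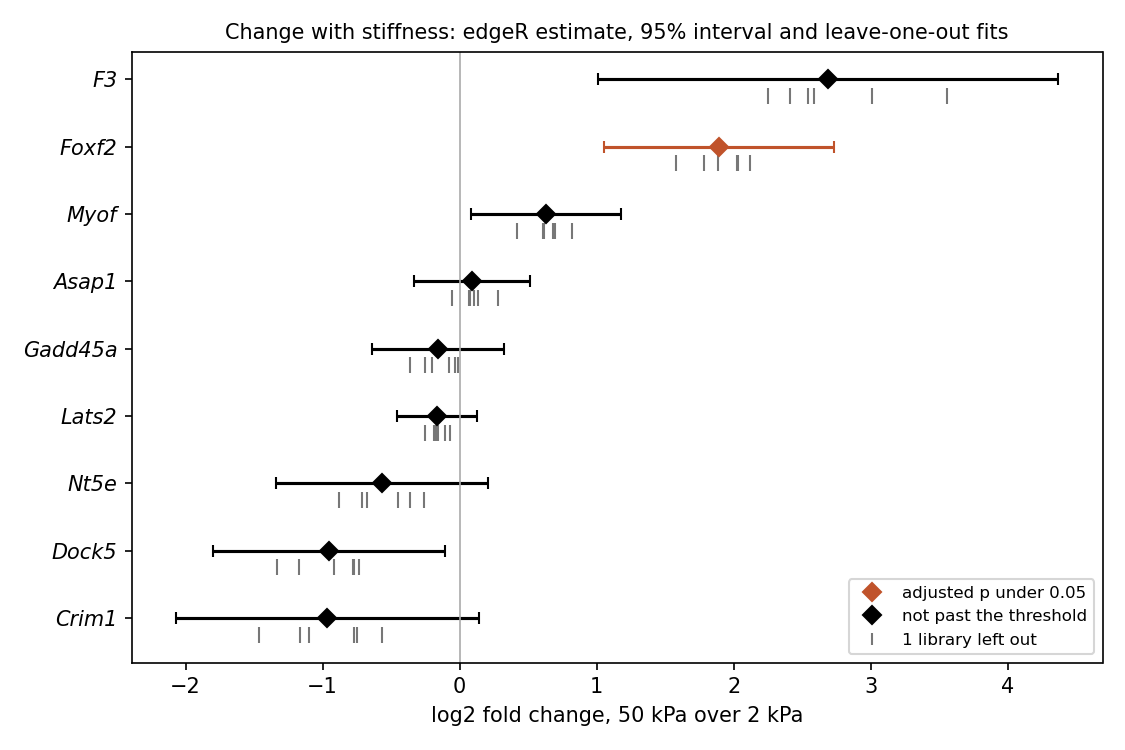
Log2 fold change of the 9 tested targets, 50 kPa over 2 kPa (x axis), by gene (y axis). Diamonds are edgeR estimates with 95% intervals, orange where the adjusted p is under 0.05, and grey ticks are the 6 fits that each left out 1 library. Only Foxf2 (1.89) is drawn as past the threshold, and F3 (2.69) has the largest estimate and the widest interval, 1.01 to 4.37.

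F3 encodes tissue factor, the membrane receptor that starts coagulation by binding factor VIIa and that monocytes and macrophages make when stimulated. Its level was 3.73, 1.51 and 9.16 CPM in 2 kPa replicates 1 to 3 and 35.3, 41.6 and 15.3 CPM in 50 kPa replicates 1 to 3. The groups did not overlap, and replicate 3 was the highest at 2 kPa and the lowest at 50 kPa. The means were 4.80 ± 3.94 and 30.7 ± 13.7 CPM (SD, n = 3), an estimated 6.44-fold higher level at 50 kPa with a 95% interval of 2.01 to 20.7. The log2 fold change of 2.69 ± 0.70 did not pass the threshold (edgeR adjusted p = 0.0812). With 1 library left out it ran from 2.25 without low tension replicate 2 (edgeR adjusted p = 0.154) to 3.56 without low tension replicate 3 (edgeR adjusted p = 0.06), and the 6 edgeR adjusted p-values ran from 0.06 to 0.267. DESeq2 gave 2.67 with an adjusted p of 0.000877. F3 lies on chromosome 3, 121723537 to 121735048, plus strand of GRCm38.

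Foxf2 encodes a forkhead transcription factor known from mesenchyme, where it acts in gut, palate and pericyte development. It stood at 6.08, 2.49 and 5.59 CPM at 2 kPa and at 20.3, 17.9 and 14.2 CPM at 50 kPa. All 50 kPa libraries were above all 2 kPa libraries, with the lowest level in 2 kPa replicate 2. Foxf2 rose 3.71-fold (95% interval 2.07 to 6.65), from 4.72 ± 1.94 to 17.5 ± 3.11 CPM (SD, n = 3), a log2 change of 1.89 ± 0.35 (edgeR adjusted p = 0.0481). The call was lost when any 1 of the 6 libraries was left out, with log2 fold changes of 1.58 to 2.12 and edgeR adjusted p-values of 0.0514 to 0.21. It was also lost when genes had to reach 5 CPM in 3 libraries (edgeR adjusted p = 0.0669) and with high tension replicates 1 and 2 summed into 1 sample (edgeR adjusted p = 0.19). The gene lies on chromosome 13, 31625816 to 31631403, plus strand, and 98 of its 2363 annotated exonic bases also hold the small RNA gene Gm27516 on the minus strand.

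Foxf2 sits in a cluster of forkhead genes, with the start of Foxq1 69.7 kb before and that of Foxc1 181 kb after its own on chromosome 13. Foxq1 stood at 1.73, 2.25 and 1.98 CPM at 2 kPa and 4.23, 3.43 and 4.20 CPM at 50 kPa (log2 fold change 0.99 ± 0.19, edgeR adjusted p = 0.0509). Foxc1 was below 1 CPM in every library, at 0.129 to 0.312 CPM on the soft and 0.492 to 0.996 CPM on the stiff surface (1.86 ± 0.45, edgeR adjusted p = 0.0738). In both, every 50 kPa library lay above every 2 kPa library, against 17.2% of all tested genes. These neighbours had positive estimates, and neither passed the threshold. They were the only 2 of 7 further forkhead genes of the Foxf, Foxc, Foxq, Foxl, Foxs and Foxd groups with enough counts to be tested. DESeq2 called both higher, as it did 8.52% of all genes, and edgeR gave both an unadjusted p under 0.05, as it did 27.8% in either direction.

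**Figure D2:**
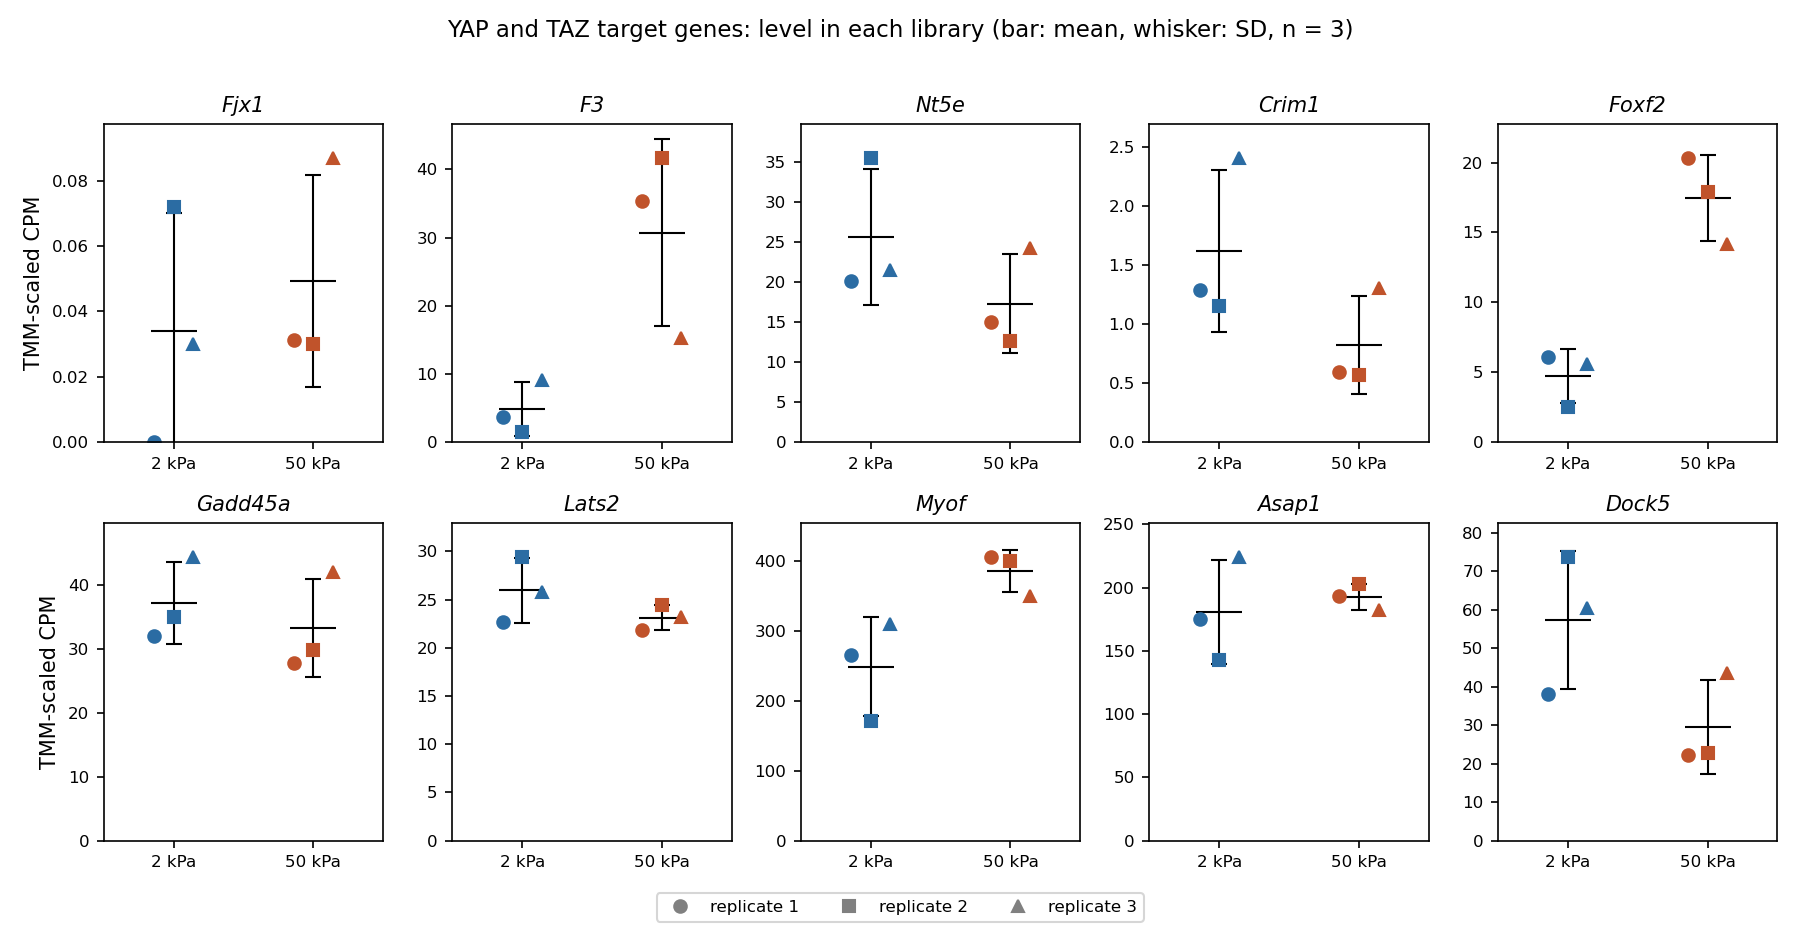
TMM-scaled CPM (y axis, its own scale in each panel, from 0) of each target gene in the 3 libraries at 2 kPa (blue) and the 3 at 50 kPa (orange). Marker shapes give the replicate number, the bar the mean and the whisker the SD, cut off at 0 for Fjx1. F3, Foxf2 and Myof are the panels in which the colours do not overlap in height.

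Promoters of these targets are shown because F3 and Foxf2, with the largest positive estimates, and Crim1, with the lowest, are named as targets of the same coactivators. A RefSeq promoter window on GRCm38.p6 was found for 7 of the 10 genes, in 8 windows, and not for Asap1, Dock5 and Fjx1. The 250 bases before each start site were searched on both strands for GGAATG, the core bound by TEAD factors, and for TGANTCA, the AP-1 core, which reads the same on both strands. Capitals mark the matches, and the runs below read 5′ to 3′ on the strand of the gene.
F3, chr3:121723287-121723536, plus strand: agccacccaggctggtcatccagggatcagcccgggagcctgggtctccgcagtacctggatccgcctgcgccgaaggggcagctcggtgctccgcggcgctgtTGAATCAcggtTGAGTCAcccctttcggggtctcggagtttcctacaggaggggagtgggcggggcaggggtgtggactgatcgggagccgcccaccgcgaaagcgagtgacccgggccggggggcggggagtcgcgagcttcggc
Foxf2, chr13:31625566-31625815, plus strand: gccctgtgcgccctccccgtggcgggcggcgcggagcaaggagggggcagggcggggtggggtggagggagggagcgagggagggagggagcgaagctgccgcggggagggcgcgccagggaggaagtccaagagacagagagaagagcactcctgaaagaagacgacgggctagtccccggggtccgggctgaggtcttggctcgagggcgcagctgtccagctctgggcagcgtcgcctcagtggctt
Crim1, chr17:78199998-78200247, plus strand: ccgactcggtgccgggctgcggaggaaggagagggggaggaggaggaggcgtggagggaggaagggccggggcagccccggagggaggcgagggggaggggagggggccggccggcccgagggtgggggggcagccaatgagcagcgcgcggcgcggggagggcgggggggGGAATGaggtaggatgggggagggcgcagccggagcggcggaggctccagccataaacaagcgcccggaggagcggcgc

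F3 held 2 matches to the AP-1 core, which start 146 and 135 bases before the start site. AP-1 is a dimer of Jun and Fos proteins that often binds beside TEAD factors. Crim1 held 1 match to the TEAD core, which starts 79 bases before the start site, and the Foxf2 window held none of either motif. The TEAD core was in 1 of the 8 windows of the targets and in 12.6% of the 32851 windows of all genes, and the AP-1 core was in 1 of 8 and in 6.75%. The 2 motifs overlap at no base of these windows. A match is a run of letters and not a measured binding site.

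Among the other surface proteins, Nt5e encodes CD73, the ecto-enzyme that makes adenosine from AMP outside the cell. It stood at 20.1, 35.5 and 21.5 CPM at 2 kPa and at 15.0, 12.7 and 24.3 CPM at 50 kPa. The groups overlapped through 50 kPa replicate 3, which was above 2 kPa replicates 1 and 3. Its log2 fold change was -0.57 ± 0.32 (edgeR adjusted p = 0.292), with a 95% interval of -1.34 to 0.21. Leaving out 2 kPa replicate 2 gave -0.26, and leaving out 50 kPa replicate 3 gave -0.88. Nt5e lies on chromosome 9, 88327197 to 88372092, plus strand.

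Crim1 encodes a transmembrane protein with cysteine-rich repeats that binds BMP growth factors. Its counts were 50, 48 and 80 at 2 kPa and 19, 19 and 45 at 50 kPa, or 1.29, 1.15 and 2.40 CPM against 0.591, 0.567 and 1.30 CPM. Again only 50 kPa replicate 3 reached the levels of the soft surface. The log2 fold change was -0.97 ± 0.46 (edgeR adjusted p = 0.225), moving to -0.57 when low tension replicate 3 was left out and to -1.47 when high tension replicate 3 was. A count of 19 has an exact Poisson 95% interval of 11.4 to 29.7, which covers counting error only. Crim1 lies on chromosome 17, 78200248 to 78376592, plus strand, and shares 123 exonic bases with Fez2 on the opposite strand.

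Fjx1 encodes a Golgi and secreted protein related to the fly Four-jointed kinase, which acts on FAT and Dachsous cadherins in planar polarity. It had 0, 3 and 1 counts at 2 kPa and 1, 1 and 3 counts at 50 kPa. A floor of 3 counts is 0.072 to 0.0933 CPM in these libraries, and no library was above it. No fold change is given, and a difference was not detectable at this depth.

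Myof encodes myoferlin, a calcium-binding membrane protein of vesicle fusion and membrane repair. It was at 265, 171 and 309 CPM at 2 kPa and at 405, 399 and 350 CPM at 50 kPa. The groups did not overlap, and the lowest value was again in 2 kPa replicate 2. The estimate was 1.55-fold higher at 50 kPa (95% interval 1.06 to 2.26), a log2 fold change of 0.63 ± 0.23 (edgeR adjusted p = 0.142). Leaving out 2 kPa replicate 2 gave 0.42, and leaving out 2 kPa replicate 3 gave 0.82. Myof was counted at 7132 to 13373 reads per library, so counting error was small beside the difference between libraries. The 4 other ferlin genes in the tables, Dysf, Otof, Fer1l4 and Fer1l5, were each below 0.5 CPM in every library and were not tested. Myof lies on chromosome 19, 37899036 to 38043577, minus strand.

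Asap1 encodes an ARF GTPase-activating protein of podosomes and focal adhesions. It was at 175, 143 and 224 CPM at 2 kPa and 193, 203 and 182 CPM at 50 kPa. The 50 kPa values lay inside the range of the 2 kPa values. The log2 fold change was 0.09 ± 0.17 (edgeR adjusted p = 0.748) with a 95% interval of -0.33 to 0.51. Its sign turned to -0.02 with total counts as the scaling and to -0.05 without low tension replicate 2. Asap1 lies on chromosome 15, 64086857 to 64382919, minus strand.

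Dock5 encodes an activator of the GTPase Rac that takes part in adhesion, mast cell degranulation and the bone-resorbing activity of osteoclasts. It stood at 38.0, 73.7 and 60.4 CPM at 2 kPa and 22.4, 22.8 and 43.7 CPM at 50 kPa. Only 50 kPa replicate 3 exceeded any 2 kPa library, replicate 1. The estimate was -0.95 ± 0.35 on the log2 scale (edgeR adjusted p = 0.146), from means of 57.3 ± 18.1 and 29.6 ± 12.2 CPM (SD, n = 3), with a 95% interval of -1.80 to -0.11. With 1 library left out it ran from -0.73 without low tension replicate 2 (edgeR adjusted p = 0.32) to -1.34 without high tension replicate 3 (edgeR adjusted p = 0.0676), and the highest edgeR adjusted p was 0.39. Dock5 lies on chromosome 14, 67752135 to 67933442, minus strand.

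The 2 intracellular regulators of growth and stress had estimates near 0. Gadd45a encodes a stress-induced protein that slows the cell cycle and aids DNA repair. It was at 32.0, 35.0 and 44.3 CPM at 2 kPa and 27.8, 29.8 and 42.0 CPM at 50 kPa, with replicate 3 the highest on both surfaces. On the log2 scale the difference was -0.16 ± 0.20 (edgeR adjusted p = 0.616), with a 95% interval of -0.64 to 0.32. Leaving out 2 kPa replicate 3 gave -0.012, and leaving out 50 kPa replicate 3 gave -0.36. Gadd45a lies on chromosome 6, 67035096 to 67037457, minus strand, and 337 of its 1764 exonic bases are shared with the opposite-strand gene E230016M11Rik.

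Lats2 encodes a Hippo kinase that is itself induced by YAP and so forms a feedback on it. It was at 22.7, 29.4 and 25.8 CPM at 2 kPa and 21.8, 24.4 and 23.2 CPM at 50 kPa. The groups overlapped, and all 6 libraries lay between 21.8 and 29.4 CPM. The log2 fold change was -0.17 ± 0.12 (edgeR adjusted p = 0.398), and the 95% interval of -0.46 to 0.13 was the narrowest of the 9. Leaving out 2 kPa replicate 2 gave -0.068, and leaving out 2 kPa replicate 1 gave -0.25. Lats2 lies on chromosome 14, 57689662 to 57758388, minus strand, and shares 2955 of its 6971 exonic bases with the gene model Gm49361 on the same strand, so its value depends on how the authors' counting treated shared reads.

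Per kb of annotated exon, the targets fell into several ranges of level. Each length is the union of all annotated exons of the gene, and the annotation behind the counts was not given. The order of the genes therefore depends in part on these lengths. At 2 kPa Asap1 (24.1 ± 5.44 CPM per kb), Gadd45a (21.0 ± 3.65) and Myof (19.7 ± 5.60) were highest and did not differ beyond their spread. Dock5, Lats2, Nt5e, Foxf2 and F3 followed at 4.71, 3.73, 2.99, 2.00 and 1.90 CPM per kb, and each overlapped the next in this order. Crim1 was at 0.27 and Fjx1 at 0.0108 CPM per kb, each below every library of the gene before it. At 50 kPa Myof came first at 30.5 ± 2.40 CPM per kb, followed by Asap1 at 25.7 ± 1.36 and Gadd45a at 18.8 ± 4.36. F3, which overlapped both neighbours, and Foxf2 came next, at 12.2 and 7.40 CPM per kb, and Foxf2 was above Lats2 (3.32) in every library. Dock5 (2.43) overlapped both Lats2 and Nt5e (2.02), and Nt5e was above Crim1 (0.137) in every library.

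**Figure D3:**
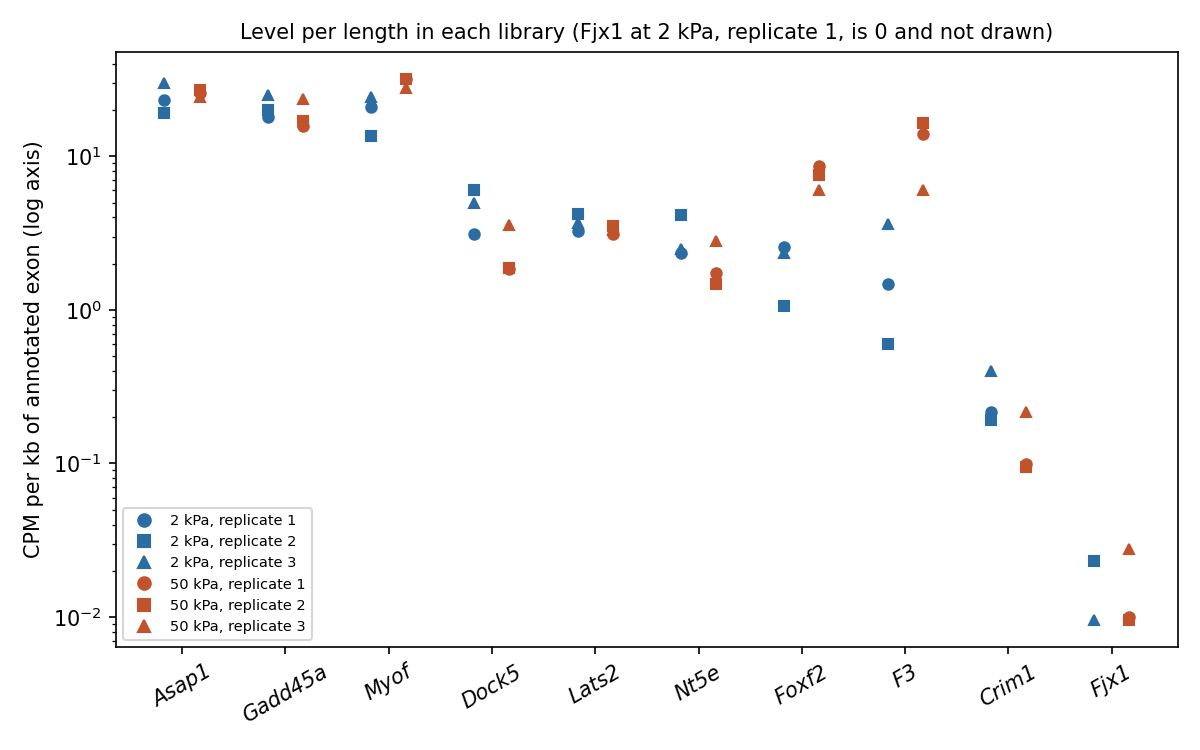
Level per length, CPM per kb of annotated exon on a log axis (y), of each target (x, ordered by the 2 kPa mean) in each of the 6 libraries. Blue is 2 kPa, orange is 50 kPa and the marker shape is the replicate number. Fjx1 at 2 kPa replicate 1 is 0 and not drawn. F3 and Foxf2 overlap Nt5e at 2 kPa and stand above it and Lats2 at 50 kPa, and Fjx1 is at or below 0.0277 in all libraries.

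The targets also differed in how libraries of 1 stiffness varied. At 2 kPa the coefficient of variation ran from 13% for Lats2 to 82.0% for F3 among the tested targets, and at 50 kPa from 5.29% for Asap1 to 50.9% for Crim1. 50 kPa replicate 3 lay towards the 2 kPa mean, seen from the mean of 50 kPa replicates 1 and 2, in 9 of the 9 tested targets. The same held in 72.6% of all tested genes. Only the direction was counted, and for Lats2 the shift was 0.104 CPM, with replicate 3 between replicates 1 and 2. 2 kPa replicate 2 was the lowest of the 6 libraries for 4 targets (F3, Foxf2, Myof and Asap1) and the highest for 3 (Nt5e, Dock5 and Lats2), against 21.3% and 28.4% of all tested genes. Likeness of 2 genes was measured as the root mean square difference of their centred log2 CPM over the 6 libraries. The targets closest to each other were Gadd45a and Lats2 (0.236), Nt5e and Dock5 (0.279), and Asap1 with Gadd45a (0.293). F3 and Dock5 were the farthest apart (2.25). This measure is also small for 2 genes that both change little between libraries, whatever the direction. Asap1 and Gadd45a had estimates of opposite sign, 0.09 and -0.16, so a small value does not mean a shared direction.

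Among the 10059 other tested genes with a mean of at least 5 CPM, Foxf2 was nearest to Cpq, a secreted carboxypeptidase gene (0.132), the leukocyte receptor gene Lilra5 (0.171) and Plcd1, a phospholipase C gene (0.225). Cpq stood at 17.6 and 60.4 CPM on average at 2 and 50 kPa. F3 was nearest to Cyp26b1 (0.435), which encodes a retinoic acid hydroxylase, the collagenase 3 gene Mmp13 (0.44) and Ly86 (0.503), whose product partners Cd180. Mean levels of Mmp13 were 104 and 753 CPM and those of Ly86 5.78 and 40.8 CPM. Myof was nearest to Itgb2 (0.0434), the beta chain of leukocyte integrins, Tgoln1 (0.0596) and H2-D1 (0.0617), whose counts may be split with related H2 genes. Of these 9 genes Lilra5, Mmp13 and Ly86 were called higher at 50 kPa, beside 1.47% of all tested genes. They were picked for profiles like those of targets with positive estimates, so the direction followed from the choice. With so many genes and 6 libraries, close profiles are described here only as such.

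A further 12 genes make up the rest of a published pan-cancer YAP and TAZ target signature, written down from general knowledge, to which the 10 belong. Of these, 8 were tested, 1 was called higher and 0 lower, with 3 positive and 2 negative at an unadjusted p under 0.05 by edgeR, and DESeq2 called 2 higher and 1 lower. Their median log2 fold change was -0.11. Ccdc80, a secreted matrix-associated protein gene, rose from 19.7, 9.23 and 13 CPM at 2 kPa to 67.7, 69.3 and 76.0 CPM at 50 kPa (2.35 ± 0.27, edgeR adjusted p = 0.0291). Amotl2, an angiomotin gene that restrains YAP, was at 1.81, 4.39 and 4.09 CPM and 0.342, 0.209 and 1.30 CPM, a log2 fold change of -2.46 ± 0.71 without overlap of the groups (edgeR adjusted p = 0.0968). Axl, a receptor kinase gene also used by macrophages for clearing dead cells, was the most abundant of the 12, at 598, 282 and 1120 CPM against 646, 645 and 930 CPM (0.15 ± 0.48, edgeR adjusted p = 0.848).

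The genes most often used as readouts of YAP and TAZ were close to the limit of detection. Ctgf, the connective tissue growth factor gene, was at 0.0259 to 0.21 CPM at 2 kPa and 0.0597 to 0.156 CPM at 50 kPa. Cyr61, its matricellular relative, was at 0.0776 to 0.168 and 0.0289 to 0.149 CPM. Ankrd1, a nuclear ankyrin-repeat protein gene, had 0 counts in 5 libraries and 2 counts in 50 kPa replicate 2. These 3 genes and Igfbp3 did not pass the filter, so a difference in them was not detectable at this depth.

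**Figure D4:**
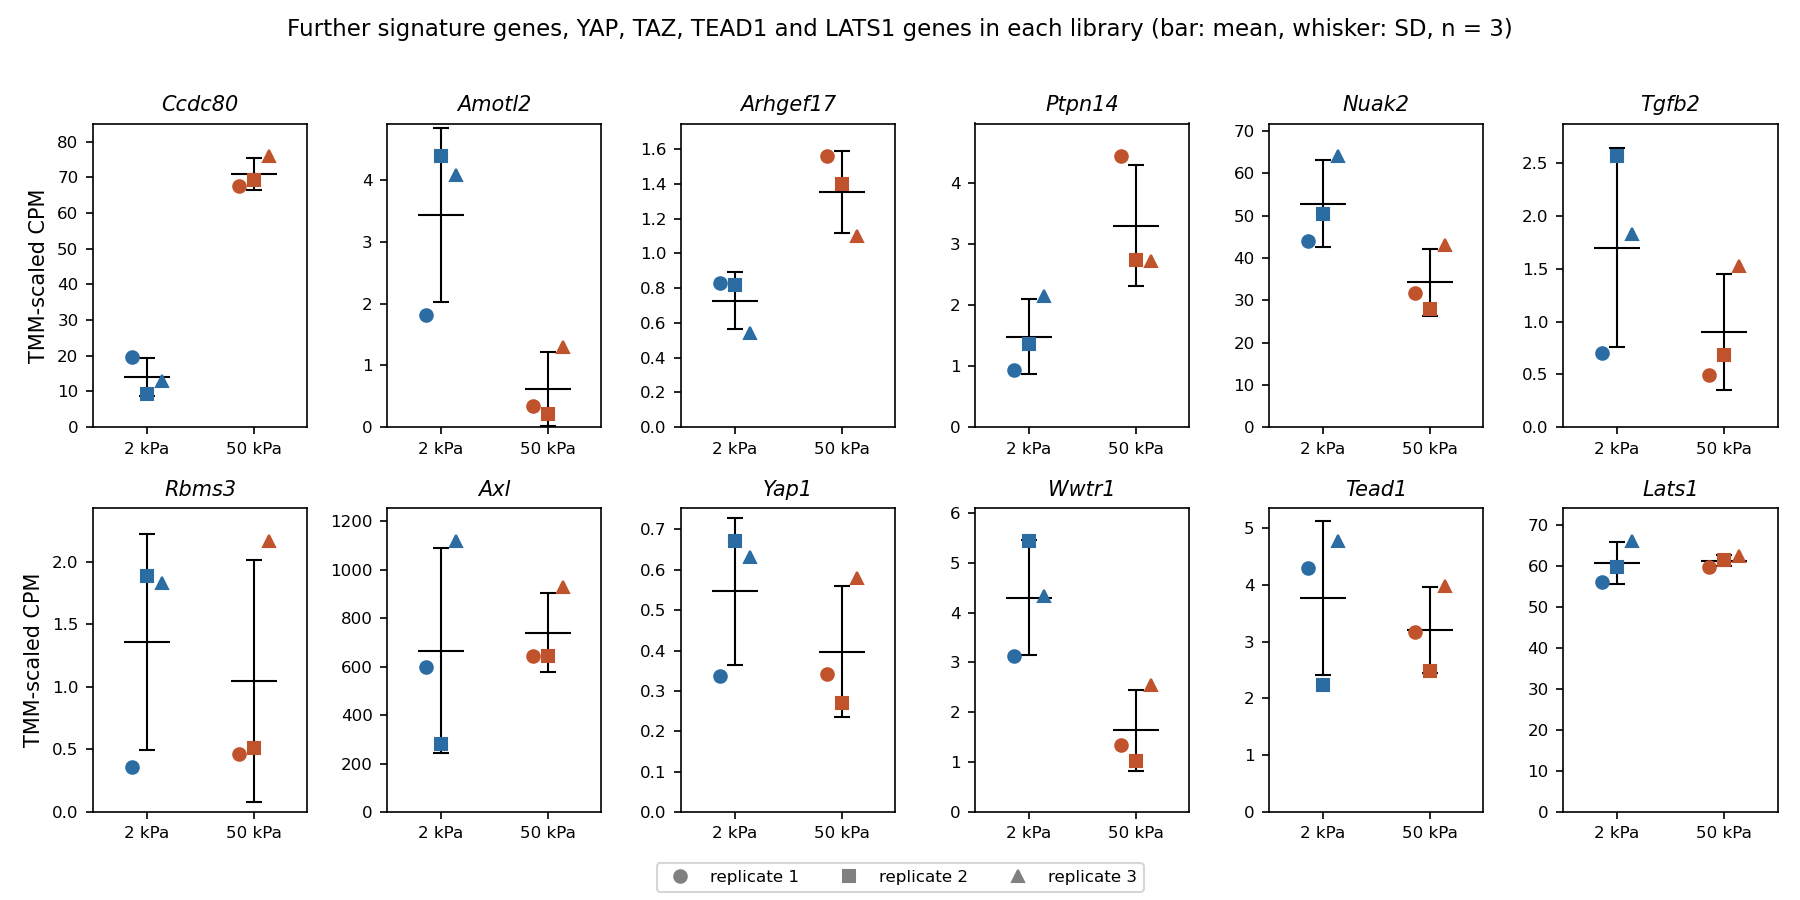
TMM-scaled CPM (y axis from 0, its own scale in each panel) of the 8 tested further genes of the target signature and of Yap1, Wwtr1, Tead1 and Lats1 in the libraries at 2 kPa (blue) and 50 kPa (orange). Marker shapes give the replicate number, bars the mean and whiskers the SD of 3 libraries. Ccdc80 stands at 67.7 to 76.0 CPM at 50 kPa and below 20 CPM at 2 kPa, while Yap1 is below 1 CPM in all 6 libraries.

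A wider list of 42 other genes named as YAP targets, without cell cycle genes, had 35 tested members. Of these, 0 were called higher and 1 lower, beside 4 positive and 7 negative at an unadjusted p under 0.05, and the median log2 fold change was 0.08. DESeq2 called 2 higher and 4 lower. Ltbp1, a gene of latent TGF-beta binding in the matrix, fell from 3.83, 4.77 and 4.57 CPM to 0.124, 0.299 and 0.579 CPM (-3.69 ± 0.47, edgeR adjusted p = 0.0322).

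Of the effectors, Wwtr1, which encodes TAZ, was at 3.13, 5.44 and 4.33 CPM at 2 kPa and 1.34, 1.02 and 2.55 CPM at 50 kPa. Its groups did not overlap and its log2 fold change of -1.39 ± 0.40 did not pass the threshold (edgeR adjusted p = 0.095). Yap1 was at 0.336 to 0.672 CPM and 0.269 to 0.579 CPM (-0.45 ± 0.42, edgeR adjusted p = 0.499). Of YAP, TAZ, 4 TEAD and 4 VGLL genes, 4 had enough counts for the test and 0 were called by edgeR, with 1 at an unadjusted p under 0.05, Wwtr1, which DESeq2 called lower. Among 21 kinases and regulators of the Hippo pathway beside Lats2, 20 were tested and 0 called by edgeR, with 3 positive and 3 negative at an unadjusted p under 0.05, and DESeq2 called 3 higher and 1 lower. The smallest p-values were those of Wwc2, a KIBRA relative (0.53 ± 0.14, edgeR adjusted p = 0.0839), and Amotl2. Lats1, the paralogue of Lats2, was at 56.1 to 66.2 CPM and 59.9 to 62.6 CPM (0.01 ± 0.09, edgeR adjusted p = 0.935). Amotl2 and Ptpn14 are counted both here and in the signature.

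Partners of the targets were examined by role. Beside F3, 16 of 19 genes of coagulation and fibrinolysis were tested, of which 2 fell and 0 rose by edgeR, with 4 positive and 4 negative at an unadjusted p under 0.05, and DESeq2 called 4 higher and 4 lower. The 2 were F5, the cofactor V gene, from 19.7, 29.8 and 19.0 to 4.76, 4.72 and 8.45 CPM (-1.93 ± 0.30, edgeR adjusted p = 0.0376), and F2rl3, the thrombin receptor PAR4 gene of platelets (-2.65 ± 0.36, edgeR adjusted p = 0.0349). The summed megakaryocyte and platelet markers were at 231, 391 and 252 CPM at 2 kPa and 102, 81.4 and 248 CPM at 50 kPa. Of the 248 CPM in 50 kPa replicate 3, 204 were those of Pf4. The part of these markers in the values of F2rl3 was not tested. Beside Nt5e, 14 of 17 genes of extracellular adenosine were tested, of which 2 fell and 0 rose by edgeR, with 3 positive and 5 negative at an unadjusted p under 0.05, and DESeq2 called 2 higher and 5 lower. These were Alpl, a phosphatase that can also make adenosine (-2.92 ± 0.47, edgeR adjusted p = 0.0381), and Ada, adenosine deaminase (-2.34 ± 0.41, edgeR adjusted p = 0.0444), both below 8 CPM in every library. Beside Dock5, 2 of 20 DOCK, ELMO, Rac and adaptor genes fell and 0 rose by edgeR, with 1 positive and 4 negative at an unadjusted p under 0.05, and DESeq2 called 1 higher and 2 lower. They were Dock9, an activator of Cdc42 (-1.36 ± 0.20, edgeR adjusted p = 0.036), and Elmo1, a partner of DOCK proteins (-0.47 ± 0.08, edgeR adjusted p = 0.0392).

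The partners of Asap1, Gadd45a, Crim1 and Fjx1 gave 0 calls by edgeR. Of 16 ARF regulators and podosome genes beside Asap1, 0 had an unadjusted p under 0.05 and DESeq2 called 0, and the smallest p-values belonged to Agap2 (-0.48 ± 0.21) and Arap3 (-0.50 ± 0.26). Of 20 GADD45 and p53 target genes beside Gadd45a, 3 positive and 5 negative had one and DESeq2 called 3 higher and 4 lower, led by Pmaip1, which encodes the death protein NOXA (-0.41 ± 0.08, edgeR adjusted p = 0.0531), and Trp53inp1 (-0.80 ± 0.17, edgeR adjusted p = 0.0563). Of 11 tested BMP genes beside Crim1, 2 positive and 2 negative had one and DESeq2 called 1 higher and 2 lower, led by the inhibitor Smad7 (0.67 ± 0.13, edgeR adjusted p = 0.0503) and the protease Bmp1 (-1.60 ± 0.37, edgeR adjusted p = 0.0675). Limma-voom gave the same number of calls as edgeR in each direction for every pathway list except the BMP genes, of which it called 1 higher. Of the FAT and Dachsous cadherins beside Fjx1, Dchs1 (1.46 ± 0.46, edgeR adjusted p = 0.112) and Fat3 (2.27 ± 0.77, edgeR adjusted p = 0.126) were tested, and both had an unadjusted p under 0.05 and were called higher by DESeq2.

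Markers of cell types were summed in each library and set beside these results. The 16 dendritic cell and macrophage markers, led by Cd74, H2-Aa and H2-Ab1, were all tested and together took 7700 to 15100 CPM at 2 kPa and 18600 to 27000 CPM at 50 kPa, with 0 called by edgeR, 6 positive and 2 negative at an unadjusted p under 0.05, and 6 higher and 2 lower by DESeq2. Of the 16, 11 had positive and 5 negative estimates. Flt3 was at 4.22, 9.19 and 8.59 CPM at 2 kPa and 2.27, 2.09 and 3.99 CPM at 50 kPa (-1.39 ± 0.39, edgeR adjusted p = 0.0922). Zbtb46 was at 9.37 to 12.6 CPM and 7.08 to 10.3 CPM, with overlap of the groups (-0.36 ± 0.19, edgeR adjusted p = 0.268). These 2 genes were low but present, and their estimates were negative where the sum was higher at 50 kPa. Other genes of the list went either way. Itgax (1.58 ± 0.54, edgeR adjusted p = 0.13) and Irf4 (0.39 ± 0.19, edgeR adjusted p = 0.223) had positive estimates. Ccr7 had a negative one (-1.22 ± 0.37, edgeR adjusted p = 0.106). Flt3, Zbtb46, Itgax, Irf4, Ccr7, Acp5, Calcr and Cldn5 are named outside the rule for named genes and were chosen after their values were seen. The 13 tested neutrophil markers took 3880 to 7670 CPM at 2 kPa and 906 to 1730 CPM at 50 kPa. By edgeR 6 were called lower and 0 higher, and by DESeq2 11 lower and 0 higher. In 50 kPa replicate 3 they took 1730 CPM, against 906 and 974 CPM in replicates 1 and 2. The 10 B and plasma cell markers took 891 to 1440 and 25.6 to 109 CPM, with 9 called lower by edgeR and 9 by DESeq2. The 9 megakaryocyte markers took 231 to 391 and 81.4 to 248 CPM, with 4 called lower by edgeR and 7 by DESeq2. Among all tested genes edgeR called 1.47% higher and 1.98% lower, and DESeq2 8.52% and 9.51%. Pf4 led the megakaryocyte sum, at 82.7, 186 and 113 CPM at 2 kPa and 82.8, 62.5 and 204 CPM at 50 kPa (-0.13 ± 0.51, edgeR adjusted p = 0.883). In 7 of the 9 megakaryocyte markers every 50 kPa library lay below every 2 kPa library, against 16.9% of all tested genes.

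Basophil and mast cell markers took 355 to 843 CPM at 2 kPa and 160 to 232 CPM at 50 kPa, with 0 of 9 called by edgeR but 8 lower at an unadjusted p under 0.05 and by DESeq2. In these 8 every 50 kPa library lay below every 2 kPa library, against 16.9% of all tested genes. Kit, the 1 with a positive estimate (0.47 ± 0.31, edgeR adjusted p = 0.358), was at 108, 59.4 and 61.7 CPM at 2 kPa. It took 125, 120 and 71.7 CPM at 50 kPa, a large part of the sums there. Osteoclast markers took 453 to 1020 and 956 to 1350 CPM, with 1 of 7 called higher and 1 lower by edgeR. Of the 7 tested, 5 had positive and 2 negative estimates. Atp6v0d2 (means of 315 and 575 CPM), Ctsk (224 and 311 CPM) and Dcstamp (56.6 and 154 CPM) led the sums. Calcr had at most 3 counts in any library, and Acp5 had a negative estimate (-0.75 ± 0.51, edgeR adjusted p = 0.373). The 14 fibroblast and stromal markers took 119 to 277 and 181 to 192 CPM, led by Lepr, Thy1 and Acta2. Of 11 tested 1 was called higher (Lepr) and 0 lower by edgeR, beside 5 negative at an unadjusted p under 0.05 and 4 lower by DESeq2. Lepr, the leptin receptor gene, was at 59.0, 69.5 and 42.8 CPM at 2 kPa and 119, 115 and 111 CPM at 50 kPa. Thy1 was at 44.1 to 168 and 53.9 to 67.6 CPM and Acta2 at 8.31 to 10.7 and 6.96 to 8.33 CPM. The 11 other genes of the list were each at or below 5.66 CPM in every library. Endothelial markers took 283 to 551 and 400 to 491 CPM, with 0 of 7 called by edgeR, 3 lower at an unadjusted p under 0.05 and 2 lower by DESeq2. Over all libraries Kdr was at 124 to 411 CPM and Vwf at 77.4 to 151 CPM. Pecam1 was at 37.1 to 69.9 CPM at 2 kPa and 21.2 to 36.4 CPM at 50 kPa. Every other endothelial marker was at or below 3.12 CPM in each library, and Cldn5 alone had 0 counts throughout. Limma-voom called 8 of the B cell and 6 of the megakaryocyte markers lower and matched the edgeR counts for the other marker lists. The part of any of these cell types in the levels of F3, Foxf2, Nt5e, Dock5 or the other targets was not tested.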

How the data were processed

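The authors deposited whole-number read counts per gene symbol, 1 table for each of 6 libraries. HTSeq 0.6.1p2, TopHat2 2.0.11, edgeR 3.16.5 and 3.8.6, FastQC 0.11.2 and 2 builds, mm10 and hg19, appear without roles, per the submitters' processing notes. The annotation and the strand option were not given in the sources used here, though a directional library kit was used, per the labels' protocols.

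Samples were grouped by their titles. In R 4.3.3 with edgeR 4.0.16, genes were filtered with filterByExpr (minimum count 10, minimum total 15), scaled by TMM and tested with glmQLFit and glmQLFTest on stiffness alone, with Benjamini-Hochberg adjustment over 13155 genes. Limma 3.58.1 (voom) and DESeq2 1.42.0 were alternatives. The standard error is the log2 fold change divided by the square root of F, and 95% intervals use the t distribution at the test's degrees of freedom. CPM use TMM-scaled library sizes. Positions and exon lengths are from GENCODE vM21 (GRCm38), and promoters from RefSeq GRCm38.p6. The procedure was tested on simulated data.

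The 10 genes and all lists were chosen with earlier results of these data known. Named genes were the 10 targets, the called genes of each list (at most 4) or else the 2 with the smallest p, 8 pathway genes fixed by name, and the 3 nearest profiles of the 3 targets with the smallest p. Alternatives were other scalings, filters and tests, replicate number as a block, and 1 library fewer. Of each marker list at most the 3 with the highest mean CPM were named.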

Additional observations from a re-analysis of the deposited data

How the results depend on the processing

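Of the 9 tested targets 1 was called higher in the reported fit, 0 when genes had to reach 5 CPM in 3 libraries, 2 with the DESeq2 Wald test, 0 with high tension replicates 1 and 2 summed, and 0 to 0 when 1 library was left out. Targets called lower were 0 in all 16 alternatives. Over all genes 194 were called higher and 260 lower. The counts were 77 higher with total counts as the scaling, 20 and 16 with the 5 CPM filter, 1121 and 1251 with DESeq2, and 0 and 0 with the 2 libraries summed. Leaving out 1 library gave 0 to 255 higher and 0 to 256 lower, and the cause was not tested. With total counts the all-gene median on the log2 scale was -0.162 rather than -0.028. Asap1 changed sign there (-0.0187) and ranged from -0.055 to 0.28 with 1 library left out. The other 8 tested targets kept their sign in every alternative that tested them. Crim1 was not tested with the 5 CPM filter, and Fjx1 was tested only without a filter.

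With the replicate number as a block, 1 target was called higher and 0 lower, and 254 and 522 of all genes. The labels do not say that a number marks a shared animal or day. Deviations from the group means correlated over genes with r = 0.54, -0.11 and 0.49 for numbers 1 to 3, and no pairing was assumed. Levels under the floor of 3 counts, as for Fjx1, limit what depth allows.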
